A study of Mus musculus with 6 samples.

Results

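Ifit1, Ifit2 and Ifit3, the antiviral RNA-binding genes of the Ifit family, were followed in the heart ventricles of Trex1 KO and Trex1 WT mice. The members were every probe set annotated with 1 of these 3 symbols, which gave 3 probe sets (1 per gene) out of 45101 on the array, and 3 genes out of 18193 with a probe set of a single symbol. The Trex1 KO group held 3 mice (A, B and C) with both Trex1 and Rag2 knocked out, and the Trex1 WT group held 3 mice with wild-type Trex1 and the same Rag2 knockout. Each letter marks a pair of littermates, 1 Trex1 KO and 1 Trex1 WT animal, and each animal was hybridised to 1 array (6 in all). The titles of pair C spell the gene "Tre1" and give WT or KO as the others do. Trex1 degrades DNA in the cytosol, and mice without Rag2 form no mature T or B lymphocytes, so both groups lack them. The sources used here do not give ages, strain or the way the alleles were made, and nothing limits the Trex1 loss to a cell type in the labels. All signals are array intensities on a linear scale, and differences are given as log2(signal + 16) in Trex1 KO less that in Trex1 WT.

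Ifit proteins are built of tetratricopeptide repeats and are made in most cell types once interferon binds its receptor. Ifit1 binds RNA whose 5′ cap lacks the methyl marks of the host and keeps it from being translated. Ifit2 binds RNA as well, and Ifit1 and Ifit2 both associate with the translation initiation factor eIF3. Ifit3 joins complexes with other Ifit proteins, and in human cells it stabilises IFIT1. Their genes can be switched on by interferon signalling, or more directly by the transcription factor IRF3, through a promoter sequence called the interferon-stimulated response element.

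The promoters of the members are shown because the genes rose together and that element can be looked for in them. The 250 bases before each annotated start were taken from RefSeq (build GRCm38.p6), all on the + strand, and run 5′ to 3′. The Ifit1 stretch is chr19:34640639-34640888, the Ifit3 stretch chr19:34583279-34583528 and the first of the 2 Ifit2 stretches chr19:34550444-34550693. Capitals mark the motif GAAANNGAAA read on either strand, here always as its reverse complement.
Ifit1: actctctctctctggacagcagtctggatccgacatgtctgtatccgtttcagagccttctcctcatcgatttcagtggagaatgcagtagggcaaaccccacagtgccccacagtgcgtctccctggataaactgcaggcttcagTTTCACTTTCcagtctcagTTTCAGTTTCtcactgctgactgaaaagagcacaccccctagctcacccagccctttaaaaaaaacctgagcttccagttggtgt
Ifit3: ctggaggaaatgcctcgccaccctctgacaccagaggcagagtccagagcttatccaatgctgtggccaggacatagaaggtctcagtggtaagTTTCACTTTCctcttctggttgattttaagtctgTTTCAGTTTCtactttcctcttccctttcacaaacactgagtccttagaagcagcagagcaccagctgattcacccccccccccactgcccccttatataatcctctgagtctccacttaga
Ifit2: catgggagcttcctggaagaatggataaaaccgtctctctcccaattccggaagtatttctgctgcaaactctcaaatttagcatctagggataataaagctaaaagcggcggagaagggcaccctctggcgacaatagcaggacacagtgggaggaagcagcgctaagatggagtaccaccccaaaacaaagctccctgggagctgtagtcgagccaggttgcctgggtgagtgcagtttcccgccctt
Ifit1 had 2 matches, at 104 to 95 and 85 to 76 bases before its start, and Ifit3 had 2, at 156 to 147 and 122 to 113 bases before its start. Both Ifit2 windows had 0. Overlapping matches were counted separately, and the 300-base windows searched also held the 50 bases from the start on. Of 32851 such RefSeq windows, 3.44% held the motif. With a C required after the motif (GAAANNGAAAC) the share was 0.819%, and Ifit1 and Ifit3 still had 2 matches each. With its last base dropped (GAAANNGAA) the share was 8.56%, and Ifit2 still had 0. A match describes letters and is no measured binding site, and the Ifit2 windows depend on the starts that RefSeq lists.

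**Figure D1:**
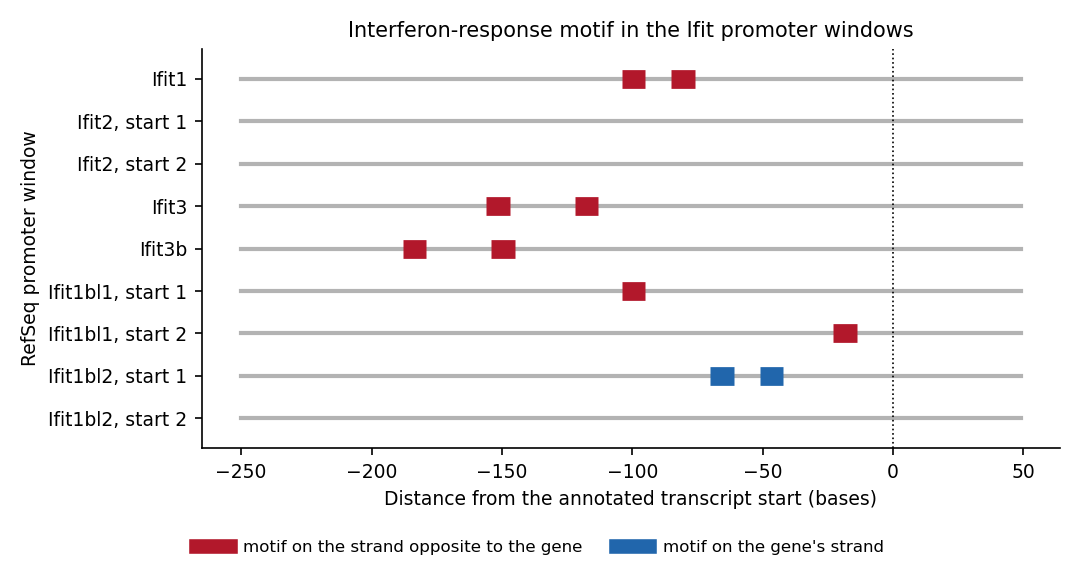
Positions of the motif GAAANNGAAA in the 300-base RefSeq promoter windows of the Ifit family genes. The horizontal axis is the distance in bases from the annotated start (dotted line), each grey line is 1 window, and the colour of a block gives the strand of the match relative to the gene. Ifit1 and Ifit3 have 2 matches each between 156 and 76 bases before their starts, and both Ifit2 windows have 0.

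The labels held for the deleted gene. The probe set annotated to Trex1 and Atrip had signals of 9.45, 20.6 and 34.2 in Trex1 KO animals A, B and C, against 714, 340 and 887 in Trex1 WT animals A, B and C. Trimmed of the outer 2% at both ends, each array averaged 500.0, so the arrays were on 1 scale as deposited. Measures of RNA quality moved with the groups. The Actb 3′ to 5′ signal ratio was 1.60 to 1.68 in Trex1 KO and 1.80 to 2.29 in Trex1 WT, and these ranges did not overlap. The 18S signal was 798 to 2834 in Trex1 KO and 924 to 13708 in Trex1 WT, and the Gapdh 3′ to 5′ ratio was 0.841 to 0.885 in Trex1 KO and 0.850 to 0.925 in Trex1 WT. Both of these overlapped between the groups but were lower in the Trex1 KO animal of all 3 littermate pairs. The only fit that took RNA quality into account had the Actb ratio as a covariate. Because that ratio did not overlap between the groups, the fit cannot tell RNA quality apart from genotype.

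All 3 Ifit genes were several-fold higher in Trex1 KO ventricles. Ifit1, the sensor of foreign RNA caps, had signals of 4112, 5676 and 4536 in Trex1 KO animals A, B and C, against 595, 1044 and 625 in Trex1 WT animals A, B and C. The lowest Trex1 KO array was 3.94 times the highest Trex1 WT array, so the groups did not overlap. Ifit1 rose 6.36-fold (95% interval 4.63 to 8.75, log2 difference 2.67, SE 0.21, limma adjusted p = 0.000354). Ifit2, an RNA-binding partner of eIF3, had signals of 3242, 4693 and 3388 in Trex1 KO animals A, B and C, against 909, 1027 and 718 in Trex1 WT animals A, B and C. Again every Trex1 KO array lay above every Trex1 WT array, here by at least 3.16 times. Ifit2 rose 4.19-fold (95% interval 3.22 to 5.46, log2 difference 2.07, SE 0.17, limma adjusted p = 0.000574). Ifit3, the partner of the other Ifit proteins, had signals of 7275, 10434 and 8377 in Trex1 KO animals A, B and C, against 1234, 1637 and 1375 in Trex1 WT animals A, B and C. Its groups were the farthest apart of the 3, the lowest Trex1 KO array being 4.44 times the highest Trex1 WT array. Ifit3 rose 6.06-fold (95% interval 4.81 to 7.64, log2 difference 2.60, SE 0.15, limma adjusted p = 4.75e-05).

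**Figure D2:**
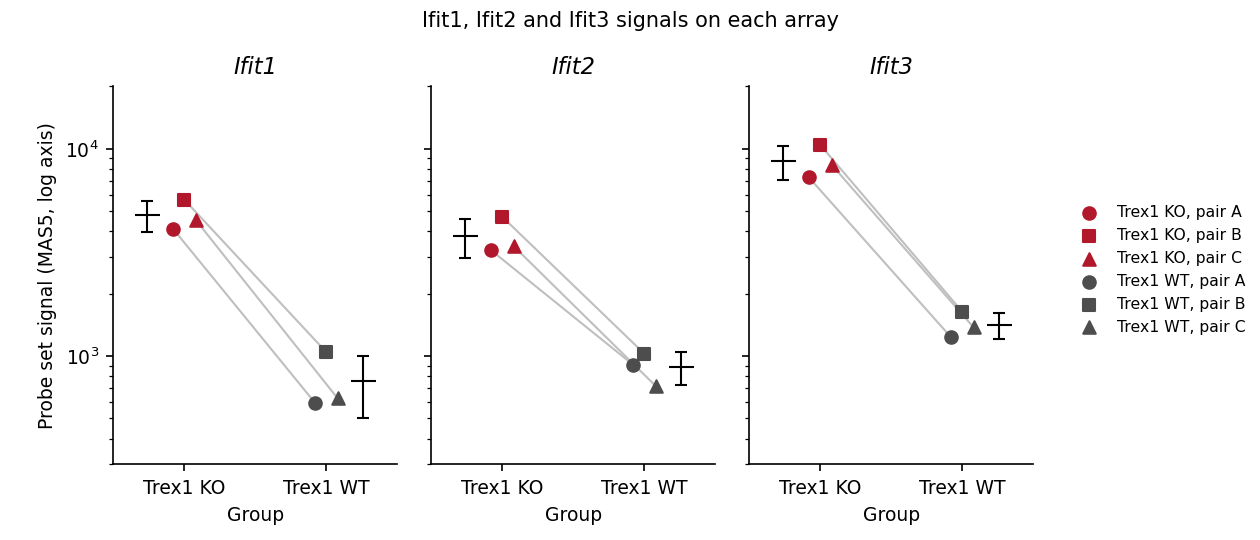
Signal of the Ifit1, Ifit2 and Ifit3 probe sets on each array (log axis), Trex1 KO left of Trex1 WT, with grey lines joining littermates and black bars for the mean ± SD (n = 3 each). In each panel all 3 Trex1 KO points lie above all 3 Trex1 WT points, and in each panel the highest point of either group belongs to pair B.

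Thus 3 of 3 members passed, where 59 of 27022 tested probe sets (0.218%) were higher in Trex1 KO by the same test. The count of 59 was 33 when Trex1 KO B was left out and 37 when Trex1 KO C was, and the members passed without each of the 6 arrays in turn. All 3 members had every Trex1 KO array above every Trex1 WT array, which held for 5.57% of tested probe sets. All 3 were also at least 2-fold higher in each littermate pair, as were 0.218% of tested probe sets. With littermate pairs as a block, 3 of 3 passed (limma adjusted p up to 5.04e-05), against 0.389% of probe sets. Fitted with the Actb ratio as covariate, the log2 differences were 3.15, 2.41 and 2.69 for Ifit1, Ifit2 and Ifit3, and 3 of 3 passed (limma adjusted p up to 0.0401). That fit found 8 higher probe sets in all. Among the 40 genes that rose, ranked by the size of the difference, Ifit1 was number 7, Ifit3 number 8 and Ifit2 number 14. In an array of whole ventricle, a higher level per cell and more cells that express the gene cannot be told apart.

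The littermate pairs gave like differences. In pairs A, B and C the log2 difference was 2.76, 2.42 and 2.83 for Ifit1. It was 1.82, 2.17 and 2.21 for Ifit2. It was 2.54, 2.66 and 2.59 for Ifit3, the narrowest range of the members. As plain signal ratios between littermates, the Trex1 KO animal had 5.44 to 7.26 times the Ifit1 signal, 3.57 to 4.72 times the Ifit2 signal and 5.89 to 6.38 times the Ifit3 signal. The coefficient of variation over the 3 animals of a group was 16.9% in Trex1 KO and 33.3% in Trex1 WT for Ifit1. It was 21.2% in Trex1 KO and 17.7% in Trex1 WT for Ifit2, and 18.4% in Trex1 KO and 14.4% in Trex1 WT for Ifit3.

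Within each group the animal of pair B had the highest signal of all 3 members. This pattern was noticed after the values were seen. It held for 13.2% of all tested probe sets, for 12 of 24 tested genes of the list of other antiviral effectors and for 7 of 9 markers of monocytes and macrophages. For Ifit1, pair B had the highest signal of both groups (5676 in Trex1 KO B and 1044 in Trex1 WT B) and the smallest ratio of the 3 pairs, 5.44.

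Ifit2 had a smaller difference than Ifit1 and Ifit3 on these arrays, and this was tested with an exact permutation test, which cannot reach 0.05 with 3 arrays a group. On each array the log2 value of 1 member was subtracted from that of another, which leaves only unequal change between the groups. The Ifit1 difference exceeded the Ifit2 difference by 0.60, and the 3 Trex1 KO arrays lay above the 3 Trex1 WT arrays. A two-sided exact permutation test gave p = 0.1, which is as low as 3 arrays against 3 can go (0.15 adjusted over the 3 pairs of members). The Ifit2 difference was 0.53 below that of Ifit3 (Ifit2 minus Ifit3, -0.53), also without overlap (exact permutation p = 0.1, adjusted 0.15). Ifit1 and Ifit3 differed by 0.07 (exact permutation p = 0.8, adjusted 0.8), and the sign of this value turned to -0.02 without Trex1 WT C.

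The other family genes with a probe set, Ifit1bl1 and Ifit1bl2, did not pass. Mouse Ifit1bl1 and Ifit1bl2 are Ifit1-like genes of the same cluster, and their roles are not described here. Ifit1bl1 had signals of 655, 696 and 596 in Trex1 KO animals A, B and C, against 709, 647 and 548 in Trex1 WT animals A, B and C. Its groups overlapped, and the log2 difference was 0.04 (95% interval -0.28 to 0.35, limma adjusted p = 0.99). The brighter probe set of Ifit1bl2 had signals of 128, 192 and 311 in Trex1 KO animals A, B and C, against 438, 269 and 135 in Trex1 WT animals A, B and C. These overlapped widely, and the differences of the pairs had opposite signs, at -1.66, -0.45 and 1.12 in pairs A, B and C (log2 difference -0.33, 95% interval -1.22 to 0.56, limma adjusted p = 0.967). Its other probe set had mean signals of 57.3 in Trex1 KO and 37.4 in Trex1 WT and was too dim to be tested. The intervals of Ifit1bl1 and Ifit1bl2 end below those of the 3 members, which start at 2.21, 1.69 and 2.27 for Ifit1, Ifit2 and Ifit3.

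**Figure D3:**
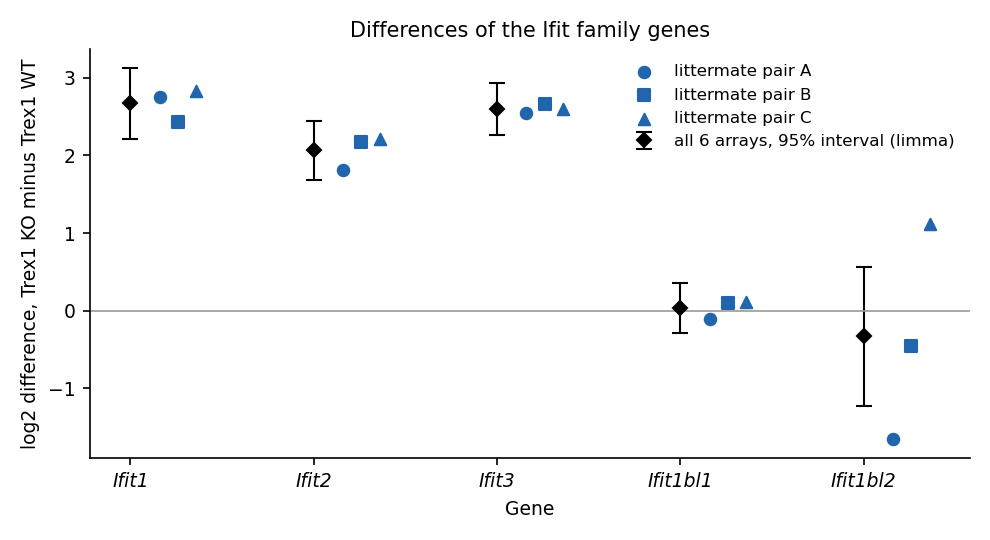
Log2 difference (Trex1 KO minus Trex1 WT) of the 5 Ifit family genes with a probe set. Diamonds are the limma estimates over 6 arrays with their 95% intervals, and blue symbols are the littermate pairs. Ifit1, Ifit2 and Ifit3 lie between 1.82 and 2.83 in every pair, Ifit1bl1 lies near 0, and the pairs of Ifit1bl2 spread from -1.66 to 1.12.

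Ifit1 and Ifit1bl2 stand head to head in RefSeq. Their nearest annotated starts lie 146 bases apart on opposite strands, and 245 bases belong to the 300-base windows of both. The 2 motif matches of Ifit1 are therefore the same 2 that the first Ifit1bl2 window holds, at 70 to 61 and 51 to 42 bases before that start. Ifit1bl1 held 1 match in each of its 2 windows. So the motif stood before 2 members that rose, Ifit1 and Ifit3, and before 2 relatives that did not pass, and no match was found in the windows of Ifit2, which rose.

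Ifit3 has a close copy. The window of Ifit3b, an Ifit3-like gene, matched that of Ifit3 at 259 of 274 aligned bases (94.5%), and also held 2 matches. The windows of the members matched each other at 54.0% of 263 aligned bases (Ifit1 and Ifit2), 56.5% of 248 (Ifit1 and Ifit3) and 57.0% of only 93 (the second Ifit2 window and Ifit3). No probe set was annotated to Ifit3b, and whether the Ifit3 probe set also takes up Ifit3b transcripts was not tested, so Ifit3 is reported with that uncertainty.

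No measured gene that flanks the cluster passed the test. In the RefSeq order of mouse chromosome 19, the Ifit span runs Ifit2, Ifit3, Ifit1bl1, Ifit3b, Ifit1bl2, the pseudogene Cnn2-ps and Ifit1. Of the 5 genes on either side, 5 of 10 had a probe set, and 0 of these 5 passed in limma (0 also at an unadjusted p under 0.05). Ch25h, which makes 25-hydroxycholesterol and is itself inducible by interferon, had mean signals of 261 ± 110.0 in Trex1 KO and 163 ± 46.9 in Trex1 WT (SD, n = 3, log2 difference 0.59, limma adjusted p = 0.953). Lipa, the lysosomal acid lipase, had 764 ± 44.8 in Trex1 KO and 725 ± 55.6 in Trex1 WT (log2 difference 0.07). The death receptor Fas and the pantothenate kinase Pank1 had log2 differences of -0.36 and -0.17, and Slc16a12, a membrane transporter, had -0.13. Gm31355, Gm31417, Gm46654, Gm18425 and Gm22082 had no probe set named to them.

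**Figure D4:**
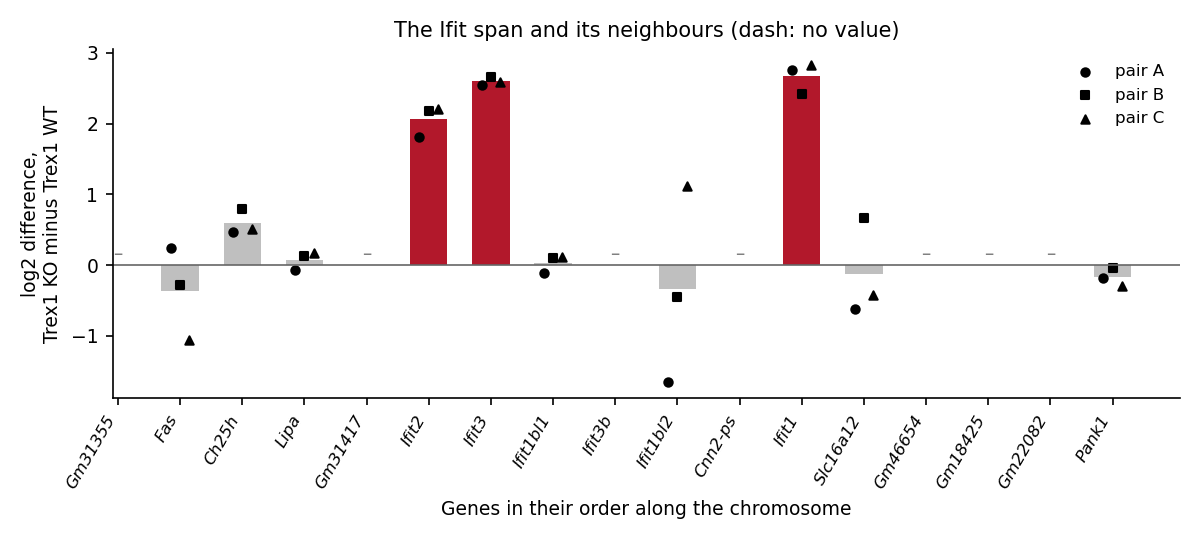
Log2 difference (Trex1 KO minus Trex1 WT) of the genes of the Ifit span and 5 genes on either side, in their order along the chromosome and not to scale in distance. Bars are the differences over 6 arrays, in red where the limma adjusted p is under 0.05, and symbols are the 3 littermate pairs. Ifit2, Ifit3 and Ifit1 stand at 2.07, 2.60 and 2.67, while the 7 other genes with a value lie between -0.36 and 0.59.

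Ifih1, which makes a sensor of double-stranded RNA, was among the genes most like each member. Likeness was the Pearson correlation of log2(signal + 16) over the 6 arrays, which mostly reflects the split between the groups and is given as a description. For Ifit1 the 5 closest of the tested genes were Trim34a, a ubiquitin ligase of the tripartite motif family (0.998), Ifih1 (0.996), Ifit3 (0.994), Rsad2, the antiviral enzyme viperin (0.993), and Usp18, which removes ISG15 from proteins (0.991). For Ifit2 they were Parp9, of the ADP-ribosyltransferase family (0.998), Ifih1 (0.994), Ifi213, of the Ifi200 family (0.993), Ddx60, a helicase (0.993), and Rsad2 (0.992). For Ifit3 they were Ifih1 (0.998), Usp18 (0.997), Ifit1 (0.994), Oas3, which makes 2-5A oligoadenylates (0.994), and Ifi27, an interferon-induced membrane protein (0.994). Ifih1 was the 1 gene in all 3 of these sets. The members correlated with each other at 0.989 (Ifit1 and Ifit2), 0.994 (Ifit1 and Ifit3) and 0.99 (Ifit2 and Ifit3).

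The size of the difference varied among these like genes although their log2 values correlated closely with those of the members. Parp9 rose 1.74-fold, to 1941 ± 197 in Trex1 KO, against 1109 ± 88.3 in Trex1 WT (SD, n = 3, limma adjusted p = 0.0285). Trim34a rose 2.29-fold, to 1674 ± 184 in Trex1 KO, against 726 ± 132 in Trex1 WT (SD, n = 3, limma adjusted p = 0.00837). Ddx60, the helicase, rose 2.94-fold, to 567 ± 135 in Trex1 KO, against 181 ± 32.6 in Trex1 WT (SD, n = 3, limma adjusted p = 0.0147). Rsad2 rose 3.18-fold on its brightest probe set (limma adjusted p = 0.00382), and Usp18 rose 10.1-fold (limma adjusted p = 6.54e-06). When the Actb ratio entered the fit, Usp18 and Ifi27 still passed (limma adjusted p = 0.00323 and 0.0019), while Ifih1, Rsad2, Oas3, Ifi213, Trim34a, Ddx60 and Parp9 did not, with limma adjusted p-values of 0.0687 to 0.349 and log2 differences of 0.94 to 2.81. Of the 9 like genes that are no members, 6 had a promoter window, and all 6 held the motif GAAANNGAAA (Ddx60, Ifi213, Ifih1, Oas3, Rsad2 and Trim34a), as did 3.99% of all genes with a window. These like genes were picked by their values, so the count is a description. The motif stood in 10 of 20 other antiviral effectors with a window and in 2 of 13 genes of the signalling list. Oasl1, Oasl2, Herc6 and Irf7 rose without a match, and Gbp2, Igtp and Irgm1 held 1 or more but did not pass.

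Usp18 and Irf7 rose in the list of signalling around Ifit induction, which holds restraining genes such as Usp18 as well as inducers. Of 14 tested genes of this list, 2 rose and 0 fell in limma (5 were higher and 0 lower at an unadjusted p under 0.05). The median log2 difference was 0.06, beside -0.01 over all tested probe sets. Usp18, which also restrains the interferon receptor, and Irf7, a transcription factor that amplifies interferon output, were the 2 that passed, higher by 3.34 (limma adjusted p = 6.54e-06) and by 2.57 (limma adjusted p = 0.000728). The transcription factors Stat2 and Irf9, which act in interferon signalling, did not pass, with a log2 difference of 0.78 for Stat2 (limma adjusted p = 0.613) and 0.62 for Irf9 (limma adjusted p = 0.222). Irf7 did not pass when the Actb ratio entered the fit (log2 difference 2.29, limma adjusted p = 0.164). Stat2 and Irf9, like the interferon gene Ifnb1, were named after their values were seen. Ifnb1 had mean signals of 74.9 in Trex1 KO and 75.6 in Trex1 WT. These were near 69.8, the highest signal of the 27 bacterial control probe sets not used as hybridisation controls.

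RNA sensors and other antiviral effectors rose beside the members. Of 5 tested RNA sensors, 4 rose and 0 fell, where 0.218% of all tested probe sets rose, and the median log2 difference was 1.53. Dhx58, a regulator of the RNA sensors, Zbp1, which senses Z-form nucleic acid, Ifih1, and Ddx58, the sensor RIG-I, had log2 differences of 2.25, 1.88, 1.53 and 1.14, with the largest limma adjusted p at 0.0474. Leaving out any 1 array other than Trex1 WT B made that count 2. The Dhx58 probe set in it had Trex1 WT signals of 10.9 to 40.5, below the filter cutoff of 53.8. It was tested only because its Trex1 KO signals raised its mean. The other tested probe sets of Dhx58 had log2 differences of 0.69 and -0.19 and did not pass. Of 24 tested other antiviral effectors, 12 rose and 0 fell, with a median of 1.09. For 21 of the 24, all Trex1 KO arrays lay above all Trex1 WT arrays, as for 5.57% of all tested probe sets. The oligoadenylate synthetases Oas3 and Oasl1 and the antiviral GTPases Mx2 and Mx1 had the largest differences, at 2.78, 2.27, 2.15 and 1.86 (limma adjusted p up to 0.0474), so the differences of Ifit1 and Ifit3 lay between those of Oas3 and Oasl1. Trex1 WT signals were 24.4 to 29.6 for Oas3 and 19.6 to 41.0 for Mx2, also below the cutoff of 53.8. Like Dhx58, Oas3 and Mx2 were tested only because their Trex1 KO signals raised their means. With the Actb ratio as a covariate, 0 effectors and 0 sensors passed in limma (20 and 5 were higher at an unadjusted p under 0.05, as were 953 of 27022 tested probe sets). The log2 differences in that fit were 2.59 for Dhx58, 2.55 for Zbp1, 1.72 for Ifih1, 0.99 for Ddx58, 2.81 for Oas3, 1.73 for Oasl1, 2.16 for Mx2 and 2.49 for Mx1.

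No gene of the cap and eIF3 machinery on which Ifit proteins act passed the test. Of 10 tested enzymes and binding proteins of the RNA cap and 5′ end, 0 passed in limma (1 higher and 1 lower at an unadjusted p under 0.05), with a median of -0.08. The decapping enzyme Nudt16 had the smallest p, with 146 ± 33.7 in Trex1 KO and 298 ± 43.7 in Trex1 WT (SD, n = 3, log2 difference -0.97, limma adjusted p = 0.259). Cmtr1, which adds the cap methyl group that Ifit1 reads as host, differed by 0.44 (log2, limma adjusted p = 0.687). Of 11 tested eIF3 subunits, read on their brightest probe sets, 0 passed in limma (0 at an unadjusted p under 0.05). The median was 0.02 and all lay between -0.10 and 0.17. Eif3a, the scaffold subunit, had the smallest p of these, with 6409 ± 1304 in Trex1 KO and 5643 ± 592 in Trex1 WT (SD, n = 3, limma adjusted p = 0.956). The other tested probe sets of the subunits ran from -0.38 (Eif3m) to 0.71 (Eif3a) and did not pass. The smallest p among them was for Eif3c, with a log2 difference of 0.45 (limma unadjusted p = 0.016, adjusted p = 0.776). Eif3e, another subunit, differed by 0.08 on its brightest probe set. Cmtr1 and Eif3e were picked with their values known.

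**Figure D5:**
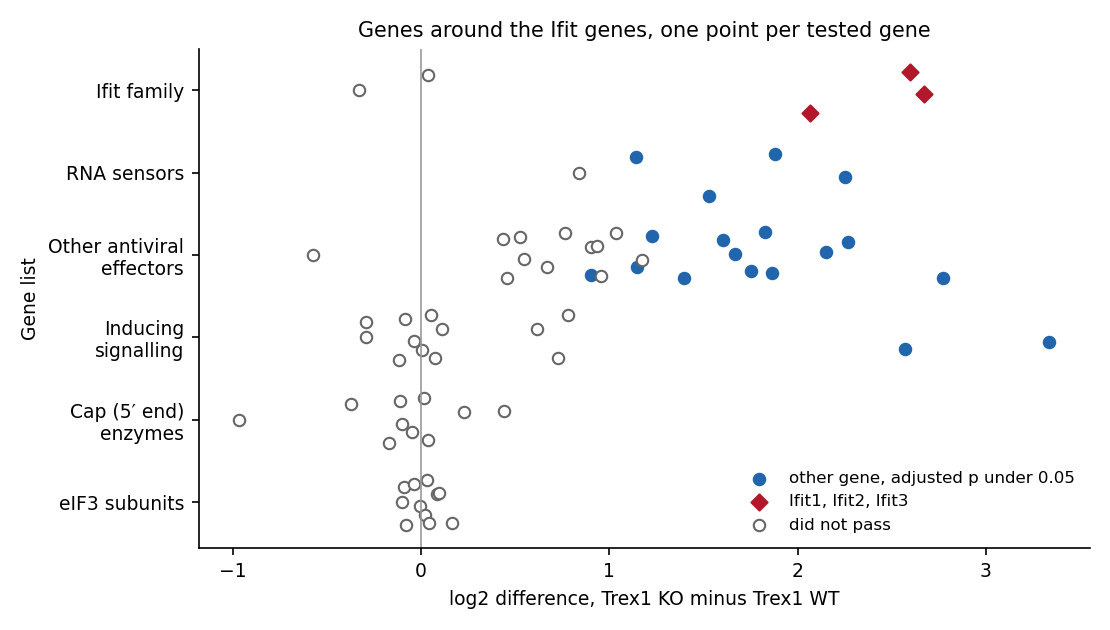
Log2 difference (Trex1 KO minus Trex1 WT) of each tested gene of 6 gene lists, with the 3 members as red diamonds, other genes at a limma adjusted p under 0.05 in blue and genes that did not pass as open circles. The members lie at 2.07 to 2.67 among the raised effectors and sensors, while eIF3 subunits lie between -0.10 and 0.17 on their brightest probe sets.

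Markers of the cells in the tissue were read beside the Ifit values. Of 7 cardiomyocyte markers, 0 passed in limma (0 at an unadjusted p under 0.05) and all lay between -0.10 and -0.0024, and their summed signal was 274974 to 304159 in Trex1 KO and 251711 to 319287 in Trex1 WT. The 9 monocyte and macrophage markers on the array summed to 19579 to 26213 in Trex1 KO and 15959 to 23567 in Trex1 WT, with a median log2 difference of 0.29 and 0 of 9 past the test in limma (2 higher at an unadjusted p under 0.05). The 5 natural killer cell markers summed to 704 to 2187 in Trex1 KO and 581 to 830 in Trex1 WT, with a median log2 difference of 0.68 and 0 of 5 past the test in limma (1 higher at an unadjusted p under 0.05). The 4 neutrophil markers summed to 535 to 1543 in Trex1 KO and 391 to 610 in Trex1 WT, with a median log2 difference of 0.82 over 3 tested ones (0.79 to 0.89) and 0 of 3 past the test in limma (1 higher at an unadjusted p under 0.05). All of these sums overlapped between the groups. Between littermates, the monocyte and macrophage sum and the natural killer sum were higher in the Trex1 KO animal in 3 of 3 pairs. So was the sum of the T and B lymphocyte markers given below, although both groups lack these mature cells. The neutrophil sum and the plasmacytoid dendritic cell sum were higher in 2 of 3 pairs and the cardiomyocyte sum in 1 of 3. The Ifit genes were higher in 3 of 3 pairs. T and B lymphocyte markers, in animals without Rag2, summed to 203 to 353 in Trex1 KO and 141 to 348 in Trex1 WT over 6 genes. Of these genes, 3 stayed on every array below the highest bacterial control not used as a hybridisation control (69.8). The plasmacytoid dendritic cell markers summed to 5074 to 5552 in Trex1 KO and 4850 to 6115 in Trex1 WT over 5 genes, 3 of them below that control, and 0 of 2 tested ones passed in limma (0 at an unadjusted p under 0.05). No marker signal was at 0. The part of these cells in the Ifit levels was not tested.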

How the data were processed

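Total RNA of heart ventricle from 3 Trex1 KO and 3 Trex1 WT mice was biotin-labelled and hybridised to 1-colour arrays. Each deposited value is an intensity that the authors summarised per probe set, linear in scale. The submitters' processing notes name MAS5, with its version and settings not given in the sources used here. Signals ran from 0.109 to 58127. They were taken as log2(signal + 16) without further scaling. Probe sets at or above the 40th percentile of mean log2 value (a signal of 53.8) were tested, 27022 of 45037 that were not controls. Differences were tested over all 6 arrays with limma 3.58.1 (R 4.3.3, lmFit and eBayes with an intensity trend, two-sided), with Benjamini-Hochberg adjustment over all tested probe sets at 0.05. Spread between these 6 animals, each hybridised once, is what the p-values measure, and the number of arrays limits the precision.

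Symbols came from the platform annotation, updated through Entrez IDs with the RefSeq table of GRCm38.p6 (34741 of 34945 probe sets with a single symbol matched, 932 had several symbols and 9160 none). The brightest such probe set stood for a gene. The 12 gene lists came from general knowledge, and of their genes those without a probe set of a single symbol were not analysed here. The members and lists were chosen with earlier results of these data known. Named genes were the members, the Ifit family, Trex1, the 4 largest differences that passed in each other pathway list (or the smallest p), 5 neighbours on either side and 5 like genes per member. Promoter windows were aligned with Biopython 1.88, with end gaps free. The series' design text names the pairs as littermates, and across probe sets, the deviations of littermates from their group means had correlations of 0.151, 0.192 and 0.147 against at most 0.0101 for other animals. Scripts were tested on simulated data. Alternatives changed the pseudocount, filter, scaling, variance model, block, covariate and arrays.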

Additional observations from a re-analysis of the deposited data

How the results depend on the processing

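The members passed at higher levels in Trex1 KO in limma under all 20 alternatives run for each, with log2 differences from 2.53 to 3.15 for Ifit1, 1.90 to 2.41 for Ifit2 and 2.46 to 2.72 for Ifit3, and adjusted p-values up to 0.0342, 0.0401 and 0.0202. Each member has 1 probe set, so averaging probe sets could not move its difference. The replicate block (littermate pairs) changed no call of a member. The counts around them moved more. Higher probe sets numbered 59, and 24 without an intensity trend, 105 with the replicate block, 8 with the Actb ratio, 23 without pair A, 34 without pair C and 33 to 85 without single arrays. Lower ones numbered 7, and 4, 16, 1, 0 and 4 in the same settings, 12 without pair B and 3 to 9 without single arrays (the 0 stood at 282 at an unadjusted p under 0.05 in limma). Raised effectors numbered 12, and 4 without an intensity trend, 0 with the Actb ratio, 3 without pair A, 4 without pair C, 18 with the replicate block and 8 to 14 without single arrays. Raised sensors numbered 4, and 2 without a filter, 1 without an intensity trend, 0 with the Actb ratio, 1 without pair A or pair C and 2 to 4 without single arrays. With the Actb ratio, 1 gene of the signalling list rose, the restraining gene Usp18, and no longer Irf7. The difference between Ifit1 and Ifit3 was -0.023 without Trex1 WT C and up to 0.22 without other single arrays. The cause of these changes was not tested, beyond the fewer arrays in some settings. With 5 arrays the exact permutation test cannot go below 0.1.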
